A study of Mus musculus with 8 samples.

Results

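The cytochrome P450 genes were examined in the accessible chromatin of mouse medullary thymic epithelial cells (mTECs). All protein-coding genes of the GENCODE M21 annotation (mm10) whose symbol starts with Cyp, a number and a letter were taken, which gave 99 of 21938 protein-coding genes, in 39 subfamilies on 15 chromosomes. Chromatin was profiled by ATAC-seq, an assay that reads where a transposase can insert into DNA. The 8 samples were Tspan8pos MHCIIhi, Tspan8pos MHCIIlo, Tspan8neg MHCIIhi and Tspan8neg MHCIIlo mTECs, each with 2 biological replicates, all sorted from the thymus of young wild-type mice as Epcam-positive cells that lack CD45 and the cortical marker CDR1. Tspan8 is a tissue-restricted antigen used to pick out a subset of mTECs. MHC class II is high in mature mTECs and low both in immature mTECs and in late mTECs, which lower it again. The values used were the positions of 57124 consensus regions, merged by the authors from peaks of these samples. A region therefore shows that chromatin was called open somewhere among the samples, and no statement is made on any group.

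Cytochrome P450 enzymes are heme monooxygenases that insert oxygen into drugs, steroids, bile acids, vitamins and fatty acids. Most enzymes of drug metabolism are made in the liver and lie in tandem arrays of similar genes, whereas several enzymes of sterol, vitamin D and retinoic acid metabolism lie alone and act in many tissues. mTECs express genes of many peripheral tissues, liver genes included, and display their products to developing T cells.

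A region was given to a gene when it overlapped the gene body or the 5 kb on either side and the gene had the nearest transcription start among the protein-coding genes it overlapped in this way. In all, 58 regions were given to 32 of the 99 Cyp genes (32.3%), compared with 68.5% of all protein-coding genes. A region overlapping the 1000 bases before a start or the 100 bases after it, called a promoter region here, was present at 20 Cyp genes (20.2%), compared with 60.7% of all protein-coding genes. A further 13 genes had a region elsewhere only, and 66 had none. In 16 of the 39 subfamilies no gene had a region. Of the marker genes listed for the sorted cells, which were chosen with earlier results of these data known, 10 of 10 mTEC and epithelial genes (among them Epcam, Aire and Foxn1) had a promoter region. Of 8 thymocyte and leukocyte genes 0 had one, of 3 cortical epithelial genes Prss16 and Ctsl had one and Psmb11 did not, and of 6 hepatocyte genes Apoa1 alone had one.

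**Figure D1:**
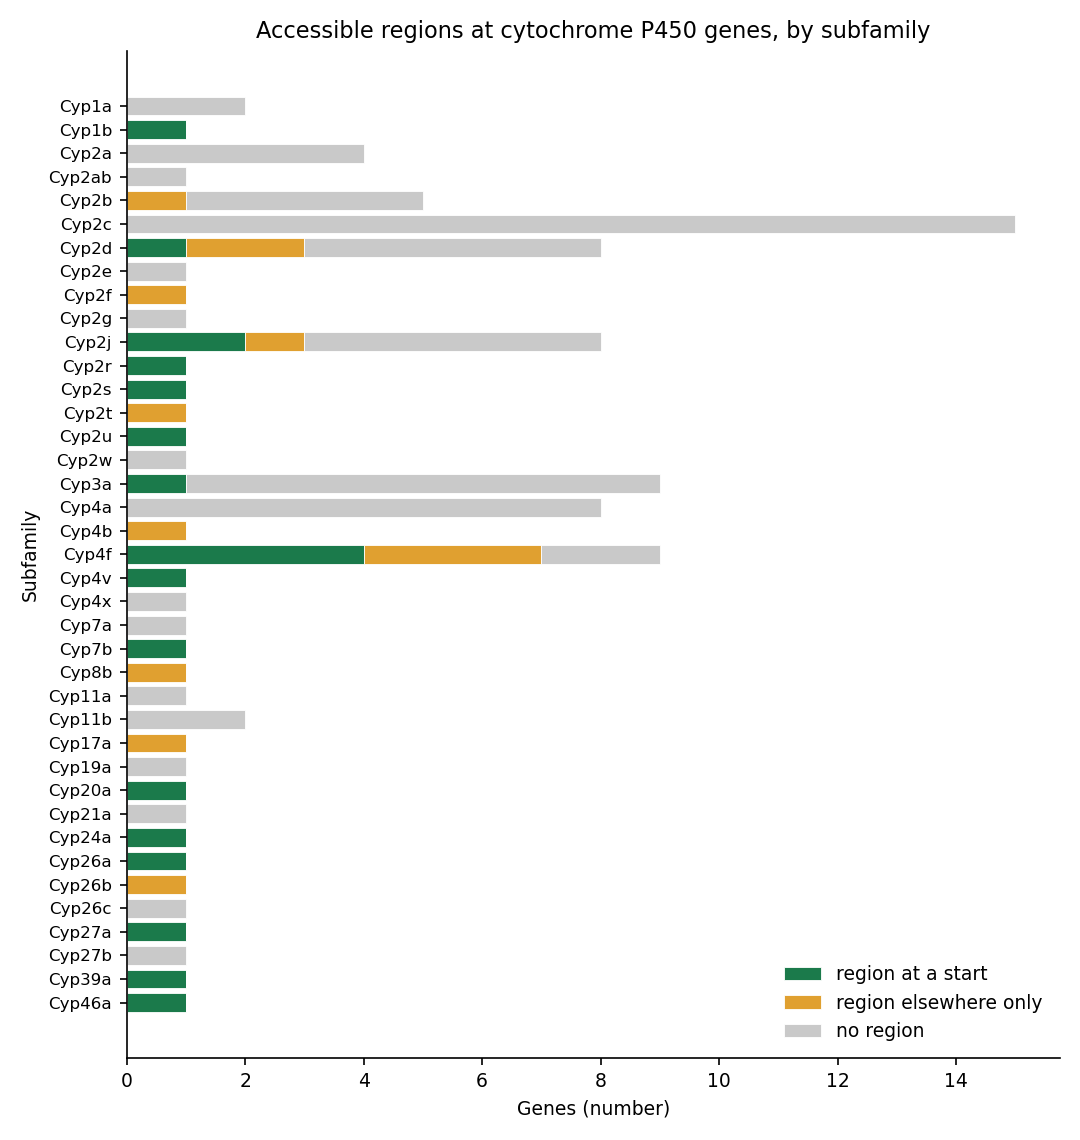
Number of genes in each of the 39 Cyp subfamilies, split by whether a gene had a region at a start (20 genes), a region elsewhere only (13) or none (66). The largest subfamily, Cyp2c, had no region at any of its 15 genes, whereas 7 of 9 Cyp4f genes had one. Of all protein-coding genes 68.5% had an assigned region.

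To show the sequence of open Cyp promoters whose regulation is best known, the regions at Cyp1b1 and Cyp24a1 are printed from the GRCm38 reference, 5′ to 3′ along the gene. Cyp1b1, which oxidises estrogens and polycyclic hydrocarbons, is a target of the aryl hydrocarbon receptor (AhR). Its region, chr17:79715655-79716131, lay wholly upstream of the gene and overlapped no exon. The 300 bases shown, chr17:79715655-79715954 on the minus strand, ended 594 bases before the 5′ end of the gene. Capitals mark GCGTG, the core bound by AhR with its partner ARNT, on either strand.
Cyp1b1: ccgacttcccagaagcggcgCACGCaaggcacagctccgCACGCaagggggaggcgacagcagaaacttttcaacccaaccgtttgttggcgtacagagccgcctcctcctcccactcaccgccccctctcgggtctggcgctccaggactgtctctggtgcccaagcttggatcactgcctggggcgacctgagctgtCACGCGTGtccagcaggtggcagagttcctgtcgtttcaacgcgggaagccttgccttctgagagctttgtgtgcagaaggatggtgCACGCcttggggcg
The printed stretch held 5 cores and the whole region 7. Of 5962 consensus regions of 400 to 550 bases, 21 (0.352%) held 7 or more, and the median was 1. This count was made after the region had been seen. The compared regions were chosen by width and not by base content. The core contains the letters CG, and the Cyp1b1 region was 66.9% G or C, against a median of 53.9% in all consensus regions. Cyp24a1, which inactivates vitamin D hormone, is a target of the vitamin D receptor. Its region, chr2:170497210-170497533, was 324 bases wide and also overlapped no exon. The 300 bases shown, chr2:170497210-170497509 on the minus strand, ended 65 bases before the 5′ end. Capitals mark the hexamers GGTTCA and AGGTGA on either strand, which form parts of known vitamin D receptor sites.
Cyp24a1: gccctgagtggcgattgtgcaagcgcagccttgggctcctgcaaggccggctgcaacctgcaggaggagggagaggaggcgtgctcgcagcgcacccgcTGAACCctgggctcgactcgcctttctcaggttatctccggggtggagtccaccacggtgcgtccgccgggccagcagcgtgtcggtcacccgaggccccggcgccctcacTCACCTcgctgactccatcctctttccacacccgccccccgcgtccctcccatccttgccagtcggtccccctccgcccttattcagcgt
Each hexamer occurred 1 time in the region, both of them on the strand opposite to the gene. Among 3273 regions of 300 to 350 bases, 10.6% held GGTTCA, 22.6% held AGGTGA and 2.47% held both. These hexamers were chosen after the sequence had been seen. A match is a description of the letters and does not show that a receptor was bound.

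The enzymes that metabolise drugs, pollutants and other foreign compounds, here Cyp1, Cyp2a to Cyp2g, Cyp2t and Cyp3a, formed the largest role list. Its starts had a median of 2 CpG dinucleotides and of 81.5% short sequence words unique in the genome. Of all protein-coding genes 60.7% had a promoter region, and of those with 0 to 3 CpG 14.4% had one. The count for this list was not adjusted for CpG or unique words. In the list, 3 of 48 genes had a promoter region. These were Cyp1b1 (region of 477 bases, centre 832 bases upstream of the nearest start), Cyp2d22 (chr15:82379963-82380416, 454 bases, across the start) and Cyp3a13 (chr5:137921613-137921690, 78 bases, across the start). Cyp3a13 lies apart from the other 8 Cyp3a genes, and its region was among the narrow ones. The remaining Cyp1 genes, Cyp1a1 and Cyp1a2, which are the classical AhR-induced enzymes, had no region of their own. A region of 737 bases lay within 5 kb of Cyp1a1 but was given to Edc3, whose start was nearer, and its centre was 10964 bases from a start of Cyp1a1. Another 5 genes of the list had a region elsewhere only. Cyp2f2, which bioactivates naphthalene in airway epithelium, had regions of 349 and 235 bases with centres 1552 bases upstream and 8381 bases downstream of its start. Cyp2b19, an epidermal arachidonic acid epoxygenase, had regions of 88 and 123 bases with centres 16314 and 18953 bases downstream of its start, and Cyp2d26, Cyp2d34 and Cyp2t4 had 1 region each, of 86, 157 and 333 bases. The other 40 genes had none. They were all 15 Cyp2c genes, the 8 remaining Cyp3a genes, 5 Cyp2d genes (Cyp2d9, Cyp2d10, Cyp2d11, Cyp2d12 and Cyp2d40), 4 Cyp2b genes (Cyp2b9, Cyp2b10, Cyp2b13 and Cyp2b23), 4 Cyp2a genes, Cyp1a1, Cyp1a2, Cyp2e1 and Cyp2g1.

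The epoxygenases of arachidonic acid and other Cyp2 genes had a promoter region at 4 of 12, below the 60.7% of all protein-coding genes. Their starts had a median of 4 CpG (range 1 to 15), and of all protein-coding genes with 4 to 9 CpG 42.5% had one. The count was not adjusted for CpG. Cyp2j6 had 2 promoter regions, chr4:96553394-96553792 (399 bases, across the start) and a narrow one of 101 bases centred 608 bases upstream. Cyp2j9 had a region of 590 bases across its start (chr4:96591312-96591901). Cyp2s1, an epithelial enzyme induced by dioxin, had a region of 679 bases (chr7:25816399-25817077) that also reached the promoter of Gm26707. Cyp2u1, a fatty acid hydroxylase expressed in brain and thymus, had a region of 387 bases (chr3:131302973-131303359). Cyp2j7 had only an intronic region, and Cyp2j5, Cyp2j8, Cyp2j11, Cyp2j12, Cyp2j13, Cyp2w1 and Cyp2ab1 had none.

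Of the 3 vitamin D enzymes, Cyp2r1, which carries out the first activating hydroxylation, had a promoter region of 603 bases (chr7:114562517-114563119), and Cyp24a1 had the region printed above, centred 226 bases upstream. Cyp27b1, the activating enzyme of the kidney, had no region. Vdr, the vitamin D receptor, had a promoter region of 461 bases. The retinoic acid hydroxylases, which break down the morphogen, differed from each other. Cyp26a1 had a region of 78 bases (chr19:37697858-37697935) centred 98 bases downstream of its start, Cyp26b1 had regions only in its 3′ UTR (190 bases) and in an intron (159 bases), and Cyp26c1 had none.

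Enzymes of bile acid and cholesterol breakdown had a promoter region at 4 of 6 genes, near the 60.7% of all protein-coding genes. Cyp7b1, which hydroxylates oxysterols and leads to bile acids by the alternative route, had the widest region of all Cyp genes, 1085 bases (chr3:18242904-18243988), and 4 further regions of 118 to 382 bases inside the gene. Cyp46a1, the cholesterol hydroxylase of neurons, had a region of 645 bases (chr12:108333900-108334544) and Cyp27a1, the mitochondrial sterol hydroxylase, 1 of 269 bases (chr1:74713446-74713714). The region at Cyp39a1, an oxysterol hydroxylase, was 518 bases wide (chr17:43666831-43667348) and was given to its neighbour Slc25a27, which has the nearer start. It is the only Cyp promoter region that belongs to another gene by the rule. Cyp7a1, the rate-limiting enzyme of classical bile acid synthesis, had no region, and Cyp8b1, which sets the proportion of cholic acid, had 1 of 232 bases in its 3′ UTR.

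No region was called at the starts of the steroid hormone enzymes. None of the 6 genes, Cyp11a1, Cyp11b1, Cyp11b2, Cyp17a1, Cyp19a1 and Cyp21a1, had a promoter region, compared with 60.7% of all protein-coding genes. Their starts had 2 to 9 CpG (median 4). Of all protein-coding genes 14.4% had a promoter region with 0 to 3 CpG and 42.5% with 4 to 9. The count was not adjusted for CpG. Of short sequence words near the start, 56.4% were unique in the genome at Cyp21a1, 61.5% at Cyp11b1 and 63.0% at Cyp11b2. The share was 99.8% at Cyp11a1 and 100% at Cyp17a1 and Cyp19a1. The authors removed reads that fit several places, and the part of repeated sequence in this absence was not tested. The one region of the list, 169 bases wide, lay over an exon of Cyp17a1, 2070 bases downstream of its start. Cyp20a1, an enzyme without a known substrate, had a region of 586 bases across its start (chr1:60343143-60343728).

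The omega-hydroxylases of fatty acids and eicosanoids divided by subfamily. Cyp4v3, which hydroxylates medium-chain fatty acids, had a promoter region of 423 bases (chr8:45332906-45333328). In Cyp4f, whose enzymes act on leukotrienes, promoter regions were present at Cyp4f17 (621 bases, chr17:32506177-32506797), Cyp4f13 (263 bases, chr17:32947313-32947575), Cyp4f16 (168 bases, chr17:32536425-32536592) and Cyp4f39 (90 bases, chr17:32452595-32452684). Cyp4f39, an enzyme of the skin lipid barrier, had 6 regions, the most of any Cyp gene, although 5 of them were at most 141 bases wide. Cyp4f15, Cyp4f18 and Cyp4f37 had regions elsewhere only, and Cyp4f14 and Cyp4f40 had none. By contrast, 0 of the 8 Cyp4a genes, which are induced in liver by the receptor PPARα, had a region, and neither had Cyp4x1. Cyp4b1 had 1 of 171 bases over an exon, 11850 bases downstream of its start. Of all protein-coding genes 68.5% had an assigned region. The median share of short sequence words near the start that are unique in the genome was 72.1% in Cyp4a and 100% in Cyp4f. This share ranged from 25.5% to 100% in Cyp4a and from 64.9% to 100% in Cyp4f. The part of repeated sequence in the contrast was not tested.

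Promoter regions were mostly wider than the others, with overlap. Of the 21 promoter regions 16 were at least 200 bases wide, and the other regions reached 382 bases. The 21 promoter regions of the Cyp genes had a median width of 423 bases, against 158 bases for the other 38 regions, and the 10 widest Cyp regions were all at promoters. In descending order these were the regions of Cyp7b1, Cyp2s1, Cyp46a1, Cyp4f17, Cyp2r1, Cyp2j9, Cyp20a1, Cyp39a1, Cyp1b1 and Cyp2d22. Promoter regions of all protein-coding genes had a median of 547 bases, and all remaining consensus regions, intergenic ones included, a median of 168 bases. At 15 of the 20 genes the region covered a start, and the exceptions were Cyp1b1, Cyp24a1, Cyp26a1, Cyp39a1 and Cyp4f39. Of the 58 assigned regions 20 were at promoters, 12 over exons, 14 in introns and 12 in the flanks.

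**Figure D2:**
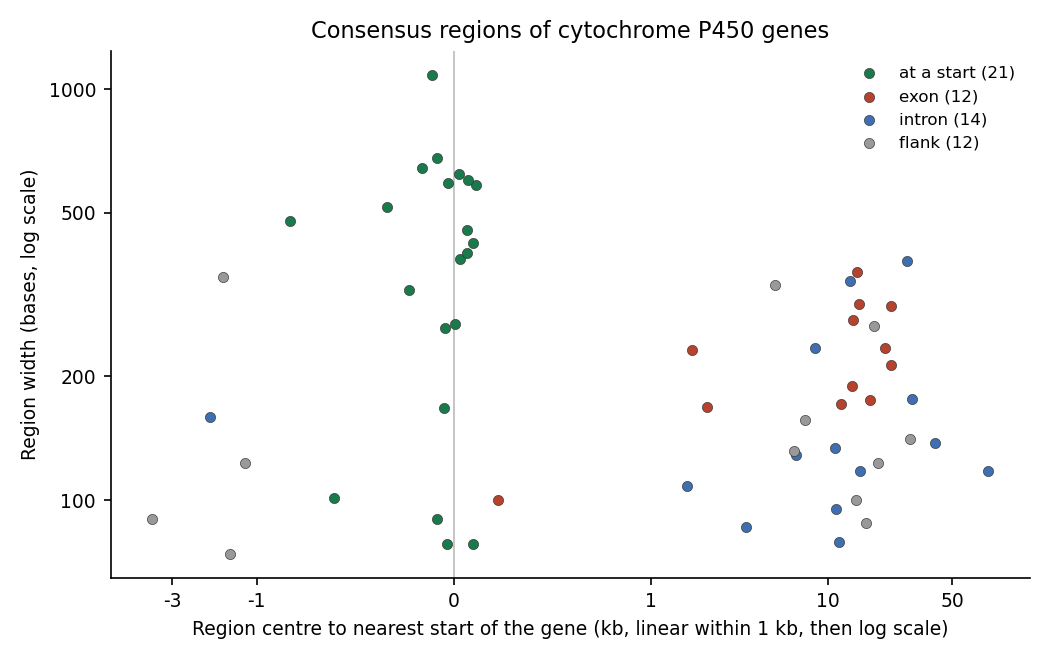
Width of each of the 58 regions assigned to Cyp genes and of the Cyp39a1 promoter region, against the distance from its centre to the nearest start of the gene, with upstream to the left. Regions at a start reach 1085 bases, and no other region is wider than 382 bases.

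Assigned and promoter regions were counted inside and outside tandem arrays. Genes whose neighbours of the family lay within 250 kb formed 8 clusters of 5 to 14 genes, with 69 genes in all, and 30 genes lay outside. In the clusters, 17 of 69 genes (24.6%) had an assigned region and 8 (11.6%) a promoter region. Outside them, 15 of 30 had an assigned region and 12 (40.0%) a promoter region. When regions under 200 bases were left out, the first of these counts fell to 11 of 69. The contrast also depended on the distance used to join genes. At 100 kb it was 13 of 46 genes with an assigned region in clusters (28.3%) and 19 of 53 outside (35.8%). Tandem copies can also be harder to map, since the authors removed reads that fit several places. Of the 31-base words within 500 bases of the 5′ end, the median gene in a cluster had 82.3% that occur once in the genome and the median gene outside had 100%. The authors sequenced read pairs, with reads longer than these words. A word that is not unique therefore does not show that a read pair was removed, and mapping of read pairs was not tested. Fewer than 80% of words were unique at 32 of the 99 Cyp genes, compared with 12.6% of all genes, and Cyp4f16 (64.9%) was the only 1 of these 32 with a promoter region. Among the 67 Cyp genes with at least 80% unique words, 19 (28.4%) had a promoter region, compared with 67.0% of all such protein-coding genes. Among the same 67 genes, 15 of 40 in clusters (37.5%) and 15 of 27 outside (55.6%) had an assigned region.

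The Cyp2c array on chromosome 19 was the emptiest. Its 14 genes span 1180.3 kb (chr19:39007019-40187333) and held 0 regions, and they lay within a single gap of 1300.7 kb between neighbouring regions. Of 55898 gaps on the autosomes, 84 (0.150%) were as long or longer. The start of Cyp2c67 was 582962 bases from the nearest region, farther than that of any other Cyp gene. Unique words at the 14 starts ranged from 3.3% to 95.8%. The fifteenth gene, Cyp2c23, lies outside the array with 100% unique words and had no region either. The array of Cyp4a, Cyp4b1 and Cyp4x1 on chromosome 4 spans 541.4 kb and held 1 region, the exonic one of Cyp4b1, and the other 9 genes lay in a gap of 539.6 kb. The Cyp3a array on chromosome 5 spans 768.0 kb and held 2 regions, neither given to any of its 8 genes. These amount to 0, 1.85 and 2.60 regions per Mb, while whole autosomes held 18.6 to 29.4 (median 22.4). Unique words at the starts ranged from 25.5% to 100% in the array with Cyp4a and from 11.7% to 99.4% in the Cyp3a array.

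The Cyp4f array on chromosome 17 stood at the other end, with 21 regions in 494.7 kb, or 42.5 per Mb. This span also holds 4 other protein-coding genes. Of the 8 Cyp4f genes in the array 6 had an assigned region, near the 68.5% of all protein-coding genes. The same 68.5% is the background for the gene counts of the arrays below. In between were the Cyp2d array on chromosome 15 (9.44 regions per Mb, 3 of 8 genes with a region), the Cyp2j array on chromosome 4 (12.6 per Mb, 3 of 8 genes) and the arrays on chromosome 7. The first of these, with Cyp2a4, Cyp2b9, Cyp2b10, Cyp2b13 and Cyp2s1, had 11.7 regions per Mb, and all its genes except Cyp2s1 lay in a gap of 918.1 kb. The second, with Cyp2a5, Cyp2a12, Cyp2a22, Cyp2b19, Cyp2b23, Cyp2f2, Cyp2g1 and Cyp2t4, had 18.2 per Mb, and only Cyp2b19, Cyp2f2 and Cyp2t4 had an assigned region.

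**Figure D3:**
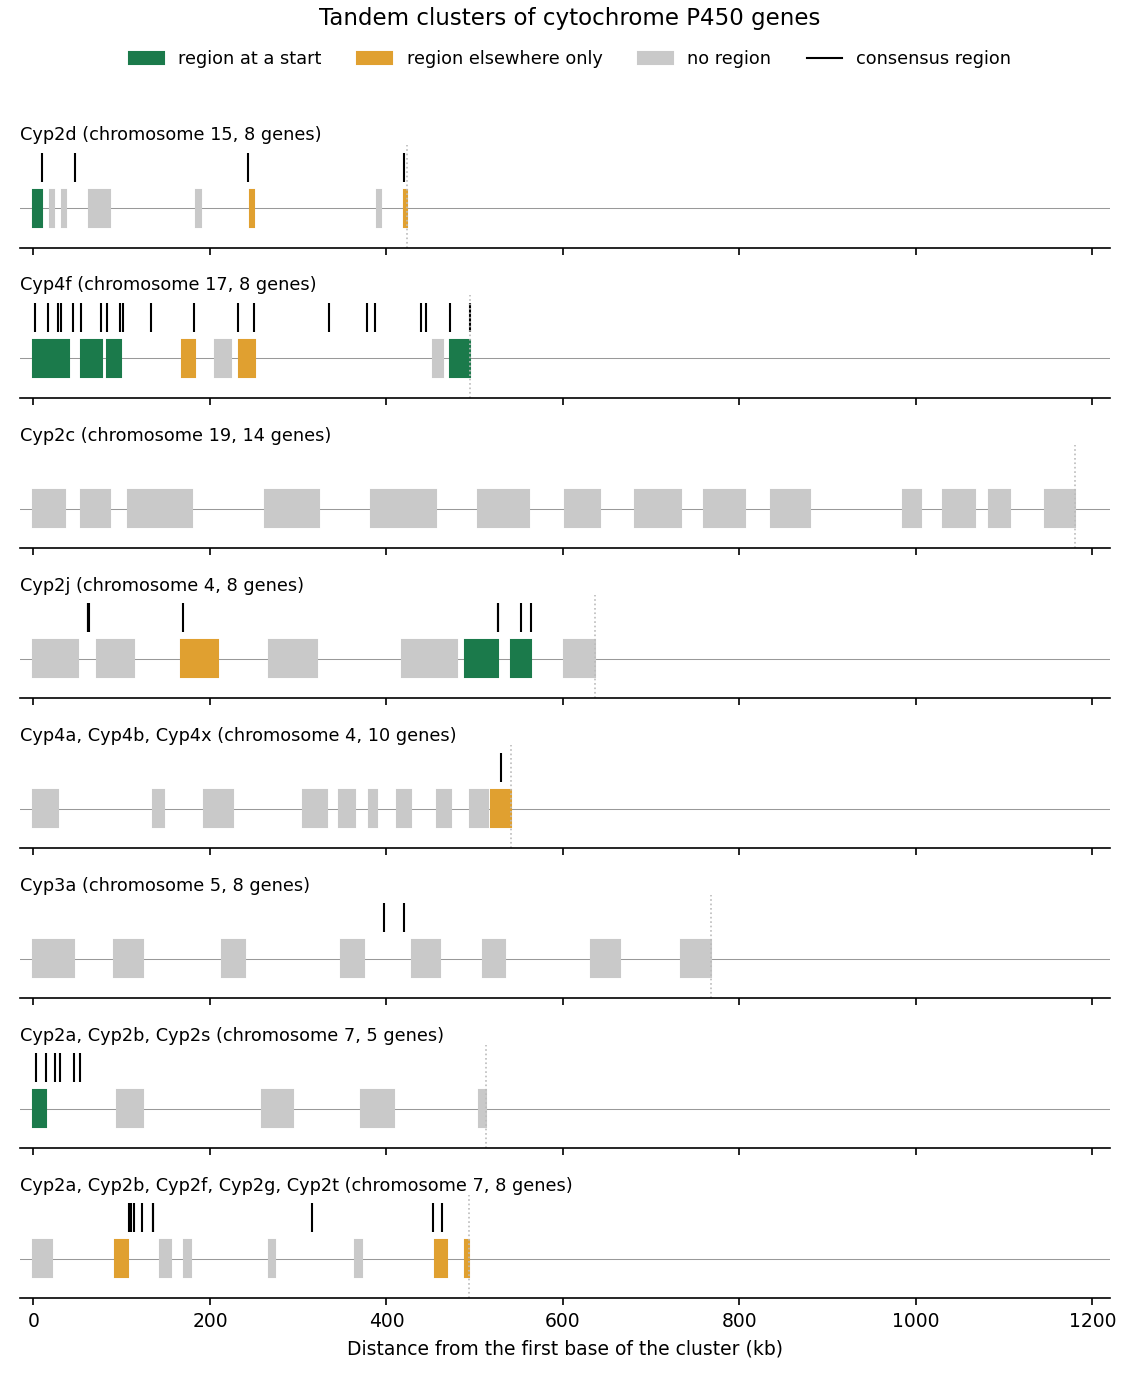
The 8 tandem clusters drawn to 1 scale, with gene bodies as boxes coloured by whether the gene had a region at a start, a region elsewhere only or none, and consensus regions as vertical lines. The dotted line marks the end of each cluster, and the Cyp2c row has 14 boxes and no line for a region.

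CpG content at the start was set beside these counts. CpG dinucleotides, which are sparse in most of the genome and dense in the promoters of widely used genes, were counted in the 300 bases from 250 upstream to 50 downstream of the gene's 5′ end. The median was 3 in Cyp genes and 11 in all protein-coding genes. It was 11 in the 20 Cyp genes with a promoter region and 2 in those with none. All 12 Cyp genes with 10 or more CpG had a promoter region, compared with 90.0% of all genes of that class. With 4 to 9 CpG the count was 5 of 24 (20.8%, all genes 42.5%), and with 0 to 3 CpG it was 3 of 63 (4.76%, all genes 14.4%). These 3 were Cyp3a13, Cyp4f13 and Cyp4f16. If the shares of all genes held in each class, 30.1 of the 99 Cyp genes would have a promoter region, against the 20 observed. The CpG-richest starts without one were those of Cyp11a1 (9 CpG, 99.8% unique words) and Cyp4x1 (8 CpG, 100%). Clusters held 2 of the 12 genes with 10 or more CpG, Cyp4f17 and Cyp4f39. Within the CpG classes, promoter regions were present at 2 of 54 cluster genes (3.70%) and 1 of 9 genes outside (11.1%) with 0 to 3 CpG, and at 4 of 13 (30.8%) and 1 of 11 (9.09%) with 4 to 9 CpG, where the direction was the opposite. With 10 or more CpG they were present at all genes, 2 in clusters and 10 outside.

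**Figure D4:**
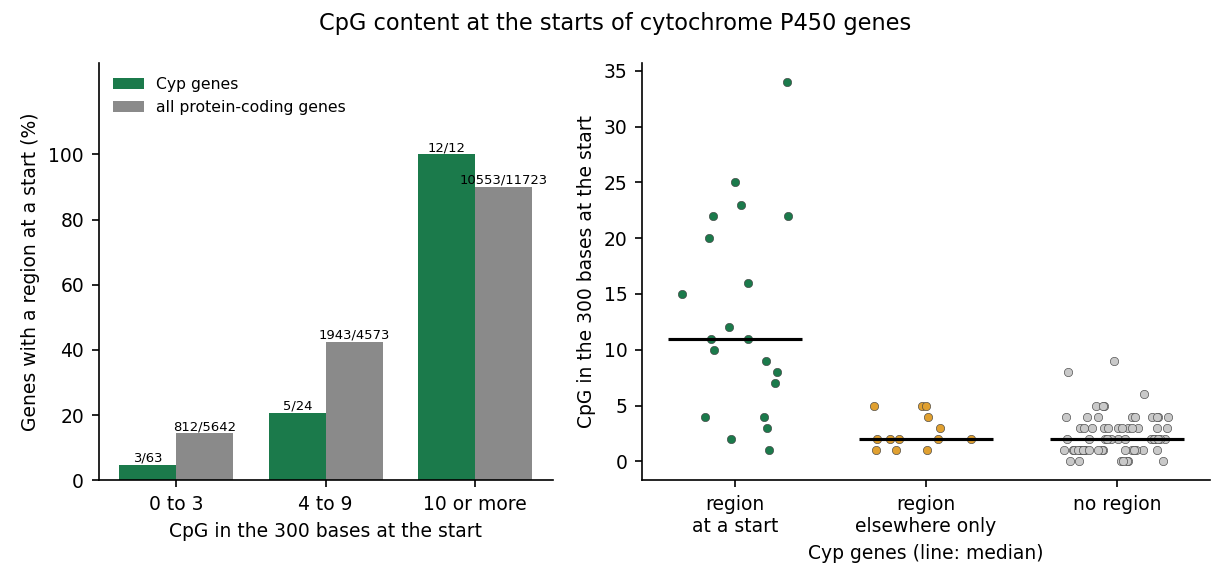
Left, percentage of genes with a region at a start among Cyp genes and all protein-coding genes, by the number of CpG in the 300 bases at the start, with the number of genes over each bar. Right, CpG count of each Cyp gene by class, with the median as a line at 11, 2 and 2.

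Short motifs of transcription factors were counted on both strands in the same 300 bases. The letters of the hepatocyte factor HNF4, CAAAGTCCA, occurred in 11 of the 79 Cyp genes without a promoter region (13.9%) and in 0 of the 20 with one. Among all protein-coding genes 0.419% held them, 0.603% of those without a promoter region and 0.301% of those with one. The 11 Cyp genes were Cyp2c40, Cyp2c65, Cyp2c67, Cyp2c68, Cyp2c69, Cyp2c70, Cyp3a11, Cyp3a16, Cyp3a41a, Cyp3a41b and Cyp8b1, so 6 lay in the region-free Cyp2c array and 4 in the Cyp3a array. To show these matches, 50 bases before the start are printed 5′ to 3′ along the gene for 7 of the 11, with the match in capitals.
Cyp2c40: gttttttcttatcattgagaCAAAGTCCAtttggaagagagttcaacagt
Cyp2c65: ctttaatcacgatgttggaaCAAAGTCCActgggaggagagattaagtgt
Cyp2c67: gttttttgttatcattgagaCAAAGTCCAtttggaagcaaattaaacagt
Cyp2c68: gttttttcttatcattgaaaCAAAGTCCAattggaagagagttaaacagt
Cyp2c70: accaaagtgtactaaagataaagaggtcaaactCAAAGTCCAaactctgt
Cyp3a16: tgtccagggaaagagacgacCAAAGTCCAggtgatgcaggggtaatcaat
Cyp8b1: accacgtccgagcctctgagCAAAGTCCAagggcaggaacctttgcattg
In the order printed these stretches lie at chr19:39812830-39812879, chr19:39060870-39060919, chr19:39649138-39649187, chr19:39741149-39741198, chr19:40187334-40187383, chr5:145469793-145469842 and chr9:121916343-121916392, all on the minus strand except that of Cyp2c65. The same 50 bases as at Cyp2c40 occurred at Cyp2c69, and those at Cyp3a16 occurred at Cyp3a41a and Cyp3a41b. The genes are therefore not independent. In the 250 bases before the start, Cyp2c40 and Cyp2c69 had the same base at 247 positions, and Cyp3a41a and Cyp3a41b at 249. The forkhead motif TGTTTAC was found in 10 of the 79 Cyp genes without and 0 of the 20 with a promoter region (all genes 3.05%, and 3.93% of those without a promoter region). The TATA box TATAAA was found in 32 of 79 (40.5%) and in 1 of 20, Cyp26a1 (all genes 12.6%, and 21.1% of those without a promoter region). Among the 20 Cyp genes with a promoter region GCGTG was found in 11, against 8 of 79 (36.8% of all genes and 50.2% of those with a promoter region). The KLF motif GGGNGTGG was found in 9 of 20 against 8 of 79. Of all genes 18.9% held it, 22.4% of those with a promoter region and 13.4% of those without. The last 2 motifs overlap where N is C. The ETS core AGGAAG was at 9 of 20 and 29 of 79 (34.6%). The CpG-containing ETS motif CCGGAAG was at 1 of 20, Cyp4f13, and 1 of 79, Cyp2t4. It was present in 10.8% of all genes, 15.9% of those with a promoter region and 2.82% of those without. The C/EBP motif TTGCGCAA was at 0 of the 99 (0.191%).

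Away from promoters, the Cyp4f genes had regions at the opposite end. At 6 of the 9 genes, Cyp4f13, Cyp4f15, Cyp4f16, Cyp4f17, Cyp4f18 and Cyp4f37, a region lay over the final coding segment. This was so for 2.58% of the 18478 protein-coding genes with several coding segments and for 0 of the other 89 such Cyp genes. The pattern was picked out after the regions had been seen. The regions were chr17:32924755-32925051, chr17:32702826-32703000, chr17:32550984-32551343, chr17:32528792-32529004, chr8:71988539-71988772 and chr17:32635015-32635289, in the order of the genes above. They were 175 to 360 bases wide, each reached across the last coding base, and Cyp4f18 is on another chromosome than the rest. To show what they share, 80 coding bases near the end are printed along the gene, first for these 6 genes and then for the 3 without such a region, with CpG in capitals.
Cyp4f13: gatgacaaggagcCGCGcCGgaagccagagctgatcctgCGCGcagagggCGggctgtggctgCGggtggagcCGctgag
Cyp4f15: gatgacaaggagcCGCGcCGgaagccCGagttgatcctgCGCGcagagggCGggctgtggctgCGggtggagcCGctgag
Cyp4f16: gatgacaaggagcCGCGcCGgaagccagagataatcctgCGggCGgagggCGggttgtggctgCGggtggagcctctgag
Cyp4f17: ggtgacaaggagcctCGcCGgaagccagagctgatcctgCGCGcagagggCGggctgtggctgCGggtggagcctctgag
Cyp4f18: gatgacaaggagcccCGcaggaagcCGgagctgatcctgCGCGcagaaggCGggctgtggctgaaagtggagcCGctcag
Cyp4f37: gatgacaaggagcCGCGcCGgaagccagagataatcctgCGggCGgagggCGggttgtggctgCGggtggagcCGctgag
Cyp4f14: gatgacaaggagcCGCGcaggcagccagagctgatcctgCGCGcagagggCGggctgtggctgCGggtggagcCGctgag
Cyp4f40: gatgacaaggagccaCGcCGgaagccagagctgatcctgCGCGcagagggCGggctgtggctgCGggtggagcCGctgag
Cyp4f39: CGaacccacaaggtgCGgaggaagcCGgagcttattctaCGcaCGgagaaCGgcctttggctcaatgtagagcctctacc
In the order printed they lie at chr17:32924793-32924872, chr17:32702871-32702950, chr17:32551138-32551217, chr17:32528799-32528878, chr8:71988576-71988655, chr17:32635058-32635137, chr17:32905517-32905596, chr17:32676385-32676464 and chr17:32492387-32492466, with Cyp4f13, Cyp4f14 and Cyp4f18 on the minus strand. All 80 bases were inside the region in each of the first 6 genes. They held 6 to 9 CpG there, and 7, 7 and 6 in Cyp4f14, Cyp4f40 and Cyp4f39, so the counts in these 80 bases overlapped. CpG in the rest of the regions was not compared. Of the 80 bases, 72 to 78 were those of Cyp4f13 in Cyp4f15, Cyp4f16, Cyp4f17, Cyp4f18 and Cyp4f37, 78 in Cyp4f14 and 79 in Cyp4f40, but 49 in Cyp4f39. The regions held 72.7% to 92.6% unique 31-base words, the highest in Cyp4f18. The part of repeated sequence in the pattern was not tested.

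**Figure D5:**
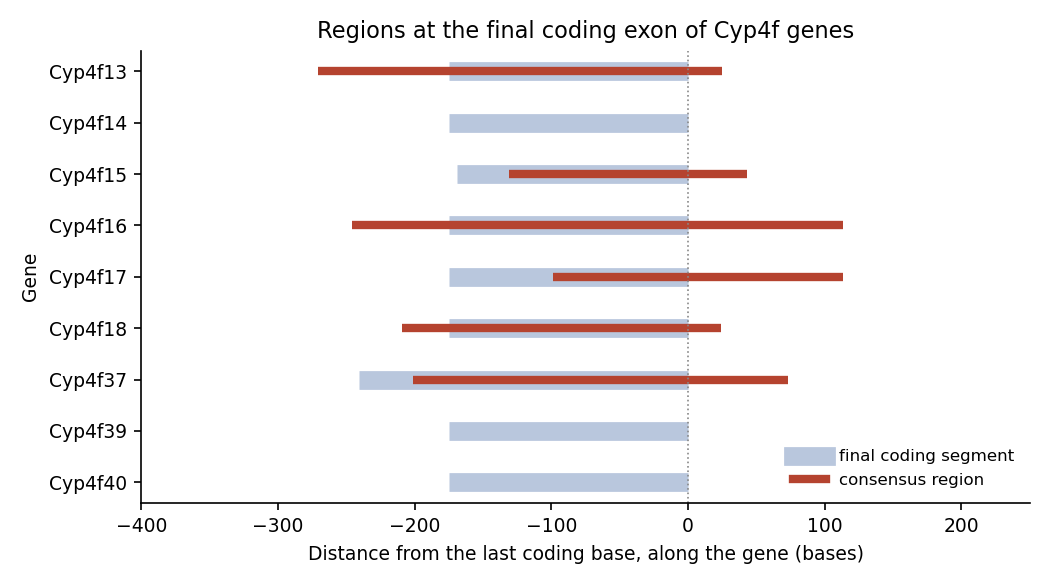
Consensus regions (red) over the final coding segment (blue) of the 9 Cyp4f genes, by distance in bases from the last coding base, with downstream to the right. Regions of 175 to 360 bases cover the end of the coding sequence in 6 genes, and Cyp4f14, Cyp4f39 and Cyp4f40 have none.

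The partners and regulators of the enzymes were examined next, and the share of all protein-coding genes with a promoter region, 60.7%, is the background for these counts. Promoter regions were present at 6 of 6 redox partners, which pass electrons to P450 enzymes: Por (712 bases), Cyb5a, Cyb5b, Cyb5r3, Fdx1 and Fdxr. Of 3 P450 genes with symbols outside the rule, Cyp51, which makes sterols in all cells, had a promoter region of 779 bases and Tbxas1, thromboxane synthase, 1 of 115 bases, while Ptgis, prostacyclin synthase, had none. Ptgis had 2 assigned regions, and the nearest region was 325 bases from a start, outside the promoter window. The nearest region to a start of Tbxas1 was 437 bases away. Of 20 transcription factors that regulate Cyp genes 14 had one, which is near that background. They included Ahr (1001 bases) and its partner Arnt (528 bases), Ahrr, Rxra, Ppara, Foxa1, Foxa2, Foxa3, Cebpa, Cebpb and Onecut1, and also Vdr, Nr5a1 and Gata4. The 6 without a promoter region were the xenobiotic receptors Nr1i2 and Nr1i3, the bile acid receptor Nr1h4, Nr0b2, Hnf4a and Nr5a2. Assigned regions were nevertheless present at 18 of the 20 regulators (68.5% of all protein-coding genes). Nr5a2 had 6 of them, Hnf4a and Nr1i2 had 2 each and Nr1h4 had 1, while Nr1i3 and Nr0b2 had 0. The nearest region to a start of Hnf4a was 11978 bases away.

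Among other families of detoxifying enzymes, the share of genes with a promoter region was 5.26% of 19 Ugt1 and Ugt2 genes, 10.5% of 19 Ces genes, 14.3% of 7 Fmo genes and 23.8% of 21 Sult genes. It was 64.0% of 25 Gst genes and 76.2% of 21 Aldh genes. The 20.2% of the Cyp genes lay with the first 4 families. The median CpG count was 2 to 4 in those 4 families, 5 in Gst and 9 in Aldh.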

How the data were processed

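mTECs of 4 groups were profiled by ATAC-seq, with 8 samples in all. The authors aligned reads to mm10 with Bowtie2, filtered them with SAMtools (mitochondrial, multimapping and poorly aligned reads were discarded) and removed duplicates with Picard. They called broad peaks with MACS2, merged them with bedtools and, per the file headers, counted reads with featureCounts 2.0.3. The sources used here do not say if this was done on single or on pooled samples. The values used, as deposited by the authors, were the start, end and width of each consensus region in bases. The 8 columns of read counts have names that match no sample label and were not used, so depth is not analysed here and the planned comparison between groups was not run.

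Starts came from the basic set of GENCODE M21, and sequence and soft-masked repeats from the GRCm38 reference, where 0 chromosomes had a region past the end. Words of 31 bases were counted over the whole reference on both strands. They are shorter than the authors' paired reads, so their unique share is not the share of read pairs that can be placed. The functions were tested on simulated data. Named with values are all Cyp genes with a promoter region and the 10 widest Cyp regions. The other genes named come from lists, or were named after their values were seen. An item of the lists is not reported here. Members and lists were chosen with earlier results of these data known. Shares are descriptions without a test, since genes are not replicates. Python 3.11.15, numpy 2.4.6, pandas 2.3.3, numba 0.67.0 and matplotlib 3.10.9 were used.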

Additional observations from a re-analysis of the deposited data

How the results depend on the processing

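Alternatives were run for the flank, the way regions were given to genes, the annotated starts, the promoter window, the region width, repeats, the joining of clusters and the minimum share of unique words. Over these settings the number of Cyp genes with an assigned region lay between 22 and 39 of 99 and the number with a promoter region between 15 and 21. Of 25 recomputed counts 24 stayed within 1.5 times the value reported. The exception was the number of genes in tandem clusters with an assigned region, which fell from 17 to 11 when regions under 200 bases were left out. Shares moved more than counts where the number of genes compared changed. The share of cluster genes with an assigned region rose from 24.6% to 37.5% with at least 80% unique words, and that of genes outside fell from 15 of 30 to 19 of 53 (35.8%) when clusters were joined at 100 kb. The corresponding background shares are 60.3% of all protein-coding genes with an assigned region of at least 200 bases and 56.6% with such a promoter region. No paired analysis was possible because the columns of counts carry no sample label and no replicate number, and the planned fits on counts and the leaving out of replicates were not run for the same reason. Regions are merged peaks, so a gene without a region is a gene without a called peak at a depth that is not known, and repeated sequence is covered less well.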
